A study of Mus musculus with 6 samples.

Results

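Genes of the visceral yolk sac endoderm, 10 in number, were followed through tailbuds of mouse embryos at embryonic day 9.5: the apolipoprotein genes Apob, Apoa1, Apoa4, Apom and Apoe, the plasma carrier genes Ttr, Rbp4 and Afp, and the receptor genes Cubn and Amn. They were chosen by name, with earlier results of these data known, and each matched 1 of the 37310 gene identifiers that the count tables list. Polyadenylated RNA was sequenced from 3 wild-type libraries (WT/WT, written WT) and 3 libraries homozygous for Danforth's short tail (Sd/Sd). All embryos were on the outbred CD-1 background, and the tailbud was cut off just in front of the last somite. Where material was short, tailbuds of 2 embryos were pooled, and the labels do not say in which libraries. Danforth's short tail arose spontaneously as an insertion upstream of Ptf1a, which encodes a pancreatic and neural transcription factor, and it truncates the tail and disturbs notochord, hindgut and kidney. Mutant tailbuds were compared with wild-type ones gene by gene.

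The visceral yolk sac endoderm is the extraembryonic epithelium that feeds the embryo before the placenta and liver take over. It captures maternal protein through the cubilin receptor, packs lipid into lipoproteins built around apolipoprotein B, and secretes carrier proteins that later come from the liver. Several of the same genes are also active at lower levels in the gut endoderm, which is continuous with the yolk sac, and Apoe is made by many cell types. The tailbud contains the end of the hindgut but is not a yolk sac sample. In bulk RNA, fewer cells of a type and less RNA per cell cannot be told apart.

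Promoter windows are shown for the members whose values in the 6 libraries did not overlap between genotypes and differed most, Apob, Apoa1 and Cubn (lower in every Sd/Sd library) and Amn (higher in every Sd/Sd library), and for Afp, whose window matched the most patterns. Of the 10 genes, 9 had an entry in the RefSeq promoter table of build GRCm38.p6, with 12 windows in all, since Apoe and Rbp4 have several start sites. Each window runs 5′ to 3′ on the gene's strand, from 250 bases before the start site to 50 after it. Capitals mark matches, on either strand, to any of 6 letter patterns tied to factors of endoderm or to the start of transcription. For the nuclear receptor HNF4 these were GGNCAAAG (the shorter HNF4 pattern) and CAAAGTCCA (the longer one), and for nuclear receptors in general AGGTCA. The pattern searched for forkhead factors such as the Foxa proteins was TGTTTAC, for the factors of the Gata family AGATAA, and for the TATA box TATAAA.

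Apob, chr12:7977427-7977726, plus strand: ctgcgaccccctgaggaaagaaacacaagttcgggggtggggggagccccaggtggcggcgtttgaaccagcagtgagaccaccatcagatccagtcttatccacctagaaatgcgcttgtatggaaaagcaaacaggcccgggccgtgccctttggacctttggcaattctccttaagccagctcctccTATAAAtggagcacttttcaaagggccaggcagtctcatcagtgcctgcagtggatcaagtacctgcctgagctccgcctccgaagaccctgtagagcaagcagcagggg

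Apoa1, chr9:46228380-46228679, plus strand: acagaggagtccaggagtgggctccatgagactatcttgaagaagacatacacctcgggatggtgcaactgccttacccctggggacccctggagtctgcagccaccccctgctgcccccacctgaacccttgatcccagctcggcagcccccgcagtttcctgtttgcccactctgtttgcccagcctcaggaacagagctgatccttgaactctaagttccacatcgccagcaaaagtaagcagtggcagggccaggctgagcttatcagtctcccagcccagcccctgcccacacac

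Cubn, chr2:13491827-13492126, minus strand: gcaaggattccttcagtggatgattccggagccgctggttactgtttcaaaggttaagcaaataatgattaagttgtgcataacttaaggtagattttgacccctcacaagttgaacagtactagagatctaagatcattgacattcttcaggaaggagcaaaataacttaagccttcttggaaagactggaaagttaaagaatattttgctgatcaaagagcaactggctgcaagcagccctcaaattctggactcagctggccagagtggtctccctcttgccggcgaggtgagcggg

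Amn, chr12:111270846-111271145, plus strand: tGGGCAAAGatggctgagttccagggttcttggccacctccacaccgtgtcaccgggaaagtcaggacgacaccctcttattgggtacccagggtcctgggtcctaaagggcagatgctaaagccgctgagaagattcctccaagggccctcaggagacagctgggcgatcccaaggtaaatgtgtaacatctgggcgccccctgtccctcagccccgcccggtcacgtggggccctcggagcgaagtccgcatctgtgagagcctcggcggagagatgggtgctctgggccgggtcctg

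Afp, chr5:90490464-90490763, plus strand: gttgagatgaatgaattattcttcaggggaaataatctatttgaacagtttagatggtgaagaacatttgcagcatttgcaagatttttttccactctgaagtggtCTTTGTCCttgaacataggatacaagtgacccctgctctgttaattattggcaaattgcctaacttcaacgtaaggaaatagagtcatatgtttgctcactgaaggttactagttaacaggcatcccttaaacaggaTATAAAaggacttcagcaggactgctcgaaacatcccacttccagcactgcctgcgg

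Matches were few. Counted from the start site, the window of Afp held the shorter HNF4 pattern on the other strand from position -144 and the TATA box from -7. The window of Amn held the shorter HNF4 pattern from -249 and that of Apob the TATA box from -60. In the windows of Apoa1 and Cubn none of the 6 patterns was found. Over all 32817 windows of the same length, 5.62% held the shorter HNF4 pattern and 13.6% the TATA box, against 2 and 4 of the 12 windows of the listed genes. The forkhead pattern was in 2 of the 12 windows (3.65% of all), in Apoe and Rbp4, and the longer HNF4, the Gata and the general nuclear receptor patterns were in 0 of 12 (0.475%, 11.2% and 16.3% of all). A match describes letters only, and no match says nothing about the factor.

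The libraries held 41788978 to 62296689 counts, so that 1 CPM (a read count scaled to library size, here with TMM factors for library composition) stood for 41.2 to 62.6 reads. Sd/Sd replicate 3 stood apart in embryonic tissue: its 11 somite genes summed to 101 CPM, against 331 to 664 CPM in the other 5 libraries. For each of the 9 tested genes the log2 fold change without it is given beside the result. Intervals on counts cover counting error only.

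Most of the 10 genes were expressed at a low level, and their order was much alike in both genotypes. Per kilobase of exon, where genes can be compared, Apoe was the highest in WT at 10.5 ± 1.11 CPM per kb (SD, n = 3), followed by Rbp4 at 3.61 ± 0.811 CPM per kb. Afp at 0.816 ± 0.357 and Apom at 0.785 ± 0.212 CPM per kb came next, with overlapping ranges. Below them, Ttr (0.293 ± 0.158), Apoa1 (0.276 ± 0.0933), Amn (0.172 ± 0.0611), Cubn (0.115 ± 0.0263), Apob (0.0832 ± 0.0183) and Apoa4 (0.0287 ± 0.0390 CPM per kb) each overlapped the next in range. Separate ranges in WT were therefore found between Apoe and Rbp4, between Rbp4 and Afp, and between Apom and Ttr. In Sd/Sd, Apoe (8.95 ± 0.661 CPM per kb) and Rbp4 (3.01 ± 0.308 CPM per kb) again led. Amn stood in 5th place in Sd/Sd at 0.348 ± 0.0637 CPM per kb, above Ttr and Apoa1, whereas in WT it stood in 7th place.

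None of the 10 genes passed the test of Sd/Sd against WT. Of the 9 that were expressed enough to be tested, 0 were higher and 0 were lower once p was adjusted over all 15471 genes in the edgeR test (Benjamini-Hochberg, threshold 0.05). Of all genes tested 0.0388% passed as higher and 0.0194% as lower, 9 genes or 0.0582% in all. At an unadjusted p under 0.05 there were 4 of 9 (Apob, Apoa1, Cubn and Amn), against 2.90% of all genes; with the replicate number as a block there was 1, Apob. DESeq2 and limma-voom also called 0 of the 9, and at an unadjusted p under 0.05 they had 1 and 4. The log2 fold change was negative for 8 of 9, against 50.1% of all genes tested, with a median of -0.61 against 0.00 over all genes (-0.43 without Sd/Sd replicate 3). All 3 Sd/Sd libraries lay below all 3 WT libraries for 4 of the 9, Apob, Apoa1, Apoe and Cubn, against 4.42% of all genes, and above them for 1, Amn, against 3.26%. These counts describe the genes and carry no test, because the genes were chosen with earlier results of these data known. A further reason is the filter, which Apoa1 reached in every WT library but not in every Sd/Sd library. Amn reached the filter in every Sd/Sd library but not in every WT library. Ttr was tested without reaching it in every library of either genotype, and Apoa4 was not tested. Sd/Sd replicate 3 was the lowest of the 6 libraries for 4 of the 10 genes, Apob, Apoa1, Apom and Afp.

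**Figure D1:**
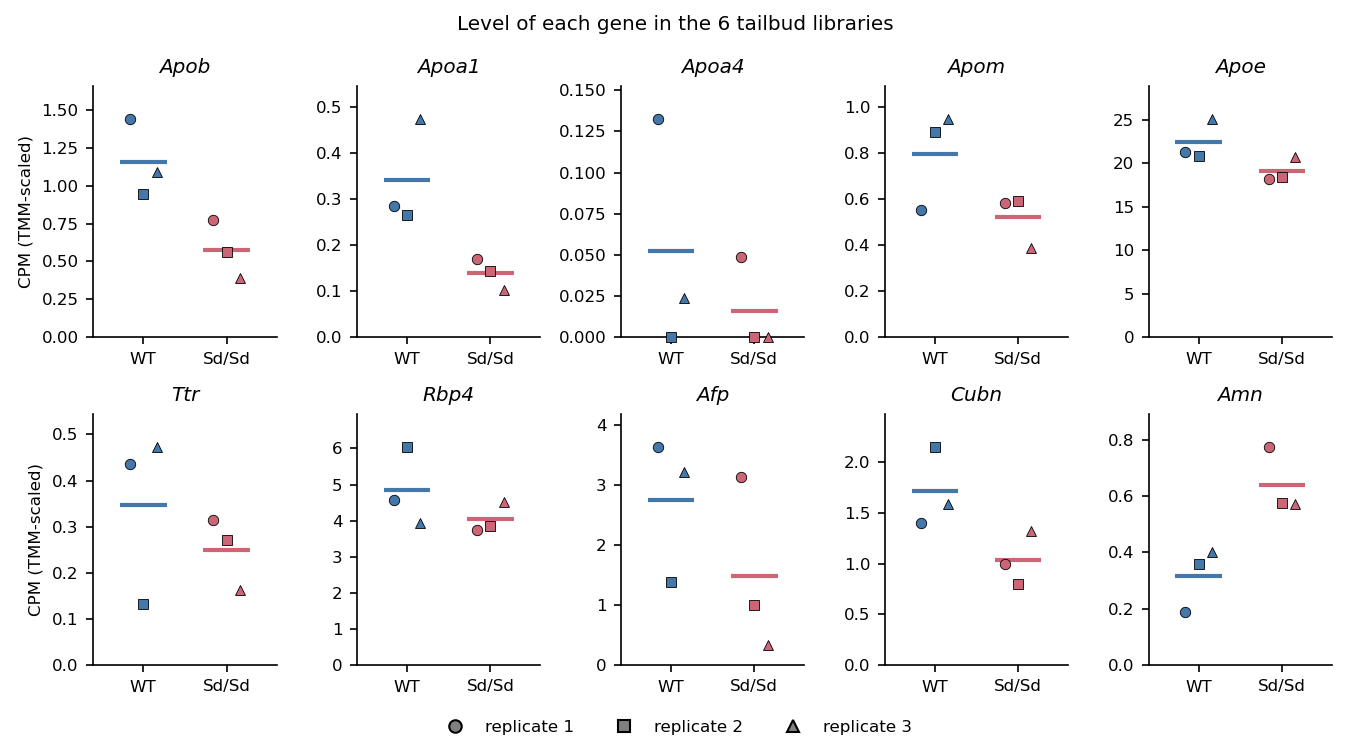
Level of each of the 10 genes in TMM-scaled CPM (vertical axis, from 0, its scale set for each gene) in the WT and Sd/Sd libraries; points are libraries, shaped by replicate number, and bars are group means (n = 3). Apob, Apoa1, Apoe and Cubn are lower in every Sd/Sd library than in every WT library, Amn is higher, and the other 5 genes overlap.

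Apob (ENSMUSG00000020609.8, chromosome 12) encodes the structural protein of chylomicron-like and very low density lipoproteins, of which each particle carries a single copy. Its level was 1.44, 0.946 and 1.09 CPM in WT replicates 1 to 3 and 0.776, 0.559 and 0.388 CPM in Sd/Sd replicates 1 to 3. Every mutant library was thus below every wild-type library, with the lowest value in Sd/Sd replicate 3. Summed over libraries, 172 wild-type reads stood against 86 mutant reads, a ratio of 0.479 per total count (95% exact binomial interval 0.365 to 0.624). The log2 fold change was -1.02 (SE 0.36; edgeR, adjusted p = 1.00, unadjusted p = 0.0207), and -0.80 without Sd/Sd replicate 3. The protein-coding neighbours of Apob, Klhl29 and Ldah, had log2 fold changes of -0.01 and 0.04.

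Apoa1 (ENSMUSG00000032083.8, chromosome 9), which encodes the main protein of high density lipoprotein, had the most negative log2 fold change of the 9. WT libraries had 15, 14 and 20 counts and Sd/Sd libraries 7, 9 and 5, or 0.284, 0.265 and 0.474 CPM against 0.170, 0.144 and 0.102 CPM. The groups did not overlap, and Sd/Sd replicate 3 was again the lowest. The ratio of summed counts was 0.411 (95% exact binomial interval 0.234 to 0.698), and the log2 fold change was -1.28 (SE 0.51; edgeR, adjusted p = 1.00, unadjusted p = 0.0330), and -1.11 without Sd/Sd replicate 3.

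Apoa4 (ENSMUSG00000032080.6, chromosome 9), whose product is an apolipoprotein of gut lipoproteins, lies close to Apoa1 in the same gene cluster and had few counts. Gm10680, a gene model on the other strand whose exons overlap those of Apoa4, had 0 counts. With no counter or strand setting on record, it is not known whether reads in the overlap were left out of both. The WT libraries held 7, 0 and 1 of its reads and the Sd/Sd libraries 2, 0 and 0. Of the 10 counts in all, 7 came from WT replicate 1. The ratio of 0.240 had a 95% exact binomial interval of 0.0248 to 1.20, so a difference was not detectable at this depth with all libraries. Single libraries decided the value for Apoa4: the ratio was 1.24 (0.0645 to 73.1) without WT replicate 1 and 0.154 (0.0159 to 0.770) without WT replicate 2. Without Sd/Sd replicate 1 the mutants had 0 counts, with an upper limit of 0.771 on the ratio. The other cluster genes split: Apoc3, an inhibitor of lipoprotein lipase placed between Apoa1 and Apoa4, had 0 counts in all 6 libraries, and Apoa5, an activator of that lipase, had 105 WT counts and 54 mutant counts. Apoa5 measured 0.683, 0.719 and 0.734 CPM in WT, against 0.340, 0.224 and 0.530 CPM in mutants, without overlap (log2 fold change -0.97 with SE 0.42; edgeR, adjusted p = 1.00). Sik3, the gene next to the cluster, was level at 86.4 ± 2.46 CPM (SD, n = 3) for WT against 86.0 ± 3.08 CPM for the mutants.

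Apom (ENSMUSG00000024391.6, chromosome 17) encodes a lipocalin that carries sphingosine 1-phosphate on high density lipoprotein. Its level was 0.550, 0.889 and 0.947 CPM in WT, against 0.582, 0.591 and 0.388 CPM in mutants. The groups overlapped because WT replicate 1 was below Sd/Sd replicates 1 and 2. The log2 fold change was -0.61 (SE 0.38; edgeR, adjusted p = 1.00), and -0.43 without Sd/Sd replicate 3.

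Apoe (ENSMUSG00000002985.9, chromosome 7), the ligand through which remnant lipoproteins bind receptors of the LDL receptor family, had the highest level of the 10 per kilobase. It measured 21.3, 20.8 and 25.1 CPM in WT, against 18.2, 18.5 and 20.8 CPM in mutants. The groups lay apart by little, the highest mutant value of 20.76 CPM being just under the lowest wild-type value of 20.79 CPM. With RLE in place of TMM scaling the groups of Apoe overlapped; the other 9 genes kept their order or overlap under RLE and upper quartile scaling. With 3285 and 2924 counts the ratio was 0.853 (95% exact binomial interval 0.811 to 0.897), and the log2 fold change was -0.23 (SE 0.11; edgeR, adjusted p = 1.00; -0.29 without Sd/Sd replicate 3). Of its cluster on chromosome 7, Apoc1 measured 0.606 ± 0.286 CPM in WT, against 0.532 ± 0.169 CPM in mutants, while Apoc4 and Apoc2 had 0 counts in every library. Over the 6 libraries and 12577 genes with at least 1 CPM, the genes most like Apoe in log2 CPM were Mapre2, Zfp770 and Gm15222 (Pearson r = 0.987, 0.981 and 0.976).

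**Figure D2:**
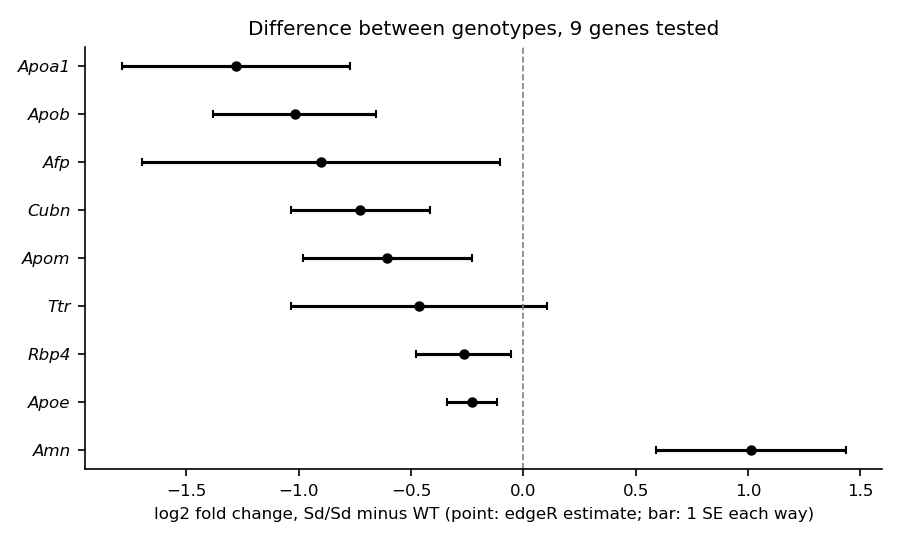
Log2 fold change of Sd/Sd minus WT (horizontal axis) for the 9 genes tested with edgeR; points are estimates and bars 1 standard error to each side. The 8 genes from Apoa1 at -1.28 to Apoe at -0.23 lie left of 0, and Amn lies at 1.01; 0 of the 9 passed after adjustment.

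Ttr (ENSMUSG00000061808.3, chromosome 18) encodes transthyretin, which carries thyroid hormone and, bound to the product of Rbp4, retinol. Counts were 23, 7 and 20 in the wild-type and 13, 17 and 8 in the mutant libraries. In CPM these were 0.436, 0.132 and 0.474 against 0.315, 0.271 and 0.163. WT replicate 2 was the lowest library of all, so the mutant values lay within the wild-type range (log2 fold change -0.46 with SE 0.57; edgeR, adjusted p = 1.00). Leaving out 1 library at a time moved the value of Ttr between -0.86, without WT replicate 2, and -0.19, without WT replicate 3. It was -0.24 without Sd/Sd replicate 3 and -0.25 without WT replicate 1.

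Rbp4 (ENSMUSG00000024990.6, chromosome 19), the retinol-binding protein gene, measured 4.57, 6.05 and 3.93 CPM in WT, against 3.74, 3.86 and 4.51 CPM in mutants. The groups overlapped, and WT replicate 2 was the highest library. The log2 fold change was -0.27 (SE 0.21; edgeR, adjusted p = 1.00), and without WT replicate 2 it was -0.07 and without Sd/Sd replicate 3 it was -0.35. Svopl, Tbx5 and Lbp were most like Rbp4 over the 6 libraries (Pearson r = 0.997, 0.986 and 0.986). Picked as the highest of 12577 genes over so few libraries, these values and those for Apoe are a description without a test.

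Afp (ENSMUSG00000054932.3, chromosome 5) encodes alpha-fetoprotein, the albumin-like serum protein of the embryo and the usual marker of visceral endoderm. It varied widely within each genotype, with counts of 192, 73 and 136 for WT against 129, 63 and 16 for the mutants. In CPM, WT measured 3.64, 1.38 and 3.22 and Sd/Sd 3.13, 1.01 and 0.326. Sd/Sd replicate 1 was close to WT replicates 1 and 3, and Sd/Sd replicate 3 was the lowest of all. The log2 fold change was -0.90 (SE 0.80; edgeR, adjusted p = 1.00) with all libraries, -0.43 without Sd/Sd replicate 3 and -2.02 without Sd/Sd replicate 1. On chromosome 5 its relatives Alb and Afm, the genes of albumin and afamin, flank Afp and had 0 counts in all libraries.

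Cubn and Amn, whose protein products form a single endocytic receptor, had log2 fold changes of opposite sign, and neither passed the threshold. Cubilin, from Cubn (ENSMUSG00000026726.8, chromosome 2), binds ligands such as apolipoprotein A-I, albumin and vitamin B12 with intrinsic factor but has no membrane span, and amnionless, from Amn (ENSMUSG00000021278.6, chromosome 12), anchors it and brings it to the cell surface. Cubn measured 1.40, 2.16 and 1.59 CPM in WT, against 0.995, 0.798 and 1.33 CPM in mutants, without overlap (log2 fold change -0.73 with SE 0.31; edgeR, adjusted p = 1.00, unadjusted p = 0.0431). Amn measured 0.190, 0.360 and 0.403 CPM in WT, against 0.776, 0.575 and 0.571 CPM in mutants, also without overlap (log2 fold change 1.01 with SE 0.42; edgeR, adjusted p = 1.00, unadjusted p = 0.0405). Summed counts were 255 and 156 for Cubn (ratio 0.586, 95% exact binomial interval 0.477 to 0.718) and 46 and 96 for Amn (ratio 2.00, 1.39 to 2.91). Without Sd/Sd replicate 3 the log2 fold changes were -0.94 for Cubn and 1.09 for Amn.

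Because both genes are counted in the same library, their ratio does not depend on scaling between libraries. There were 7.4, 6 and 3.94 Cubn counts per Amn count in WT replicates 1 to 3 and 1.28, 1.39 and 2.32 in Sd/Sd replicates 1 to 3. All mutant libraries were below all wild-type libraries. The mean log2 ratio was 2.48 ± 0.46 in WT and 0.68 ± 0.47 in Sd/Sd (SD, n = 3), a difference of -1.80. This pair was put together after its values were seen, and the separation of the ratios follows from that choice, so the difference is given without a test. Amn also reached the filter in every library of the mutants only. Leaving out each library in turn gave differences between -2.07 and -1.60.

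The genes next to Amn, Traf3 and Cdc42bpb, had log2 fold changes of -0.03 and 0.01. Gm13270, an antisense gene model whose exons overlap those of Cubn, was counted 6 times in WT and 8 times in the mutants, and with no strand setting on record the reads of Cubn and Gm13270 cannot be told apart. Among other genes of the uptake machinery 0 of 9 tested passed (7 of 9 negative, median log2 fold change -0.10). Lrp2, the gene of megalin, the partner of cubilin in epithelia that take up protein, measured 55.9 ± 8.41 CPM in WT, against 50.7 ± 10.7 CPM in mutants (SD, n = 3). Dab2, its endocytic adaptor, measured 67.6 ± 7.25 and 63.2 ± 7.67 CPM. The smallest unadjusted p-values in this list belonged to Rab11a, Myo6 and Dab2, with log2 fold changes of -0.12, -0.17 and -0.10.

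**Figure D3:**
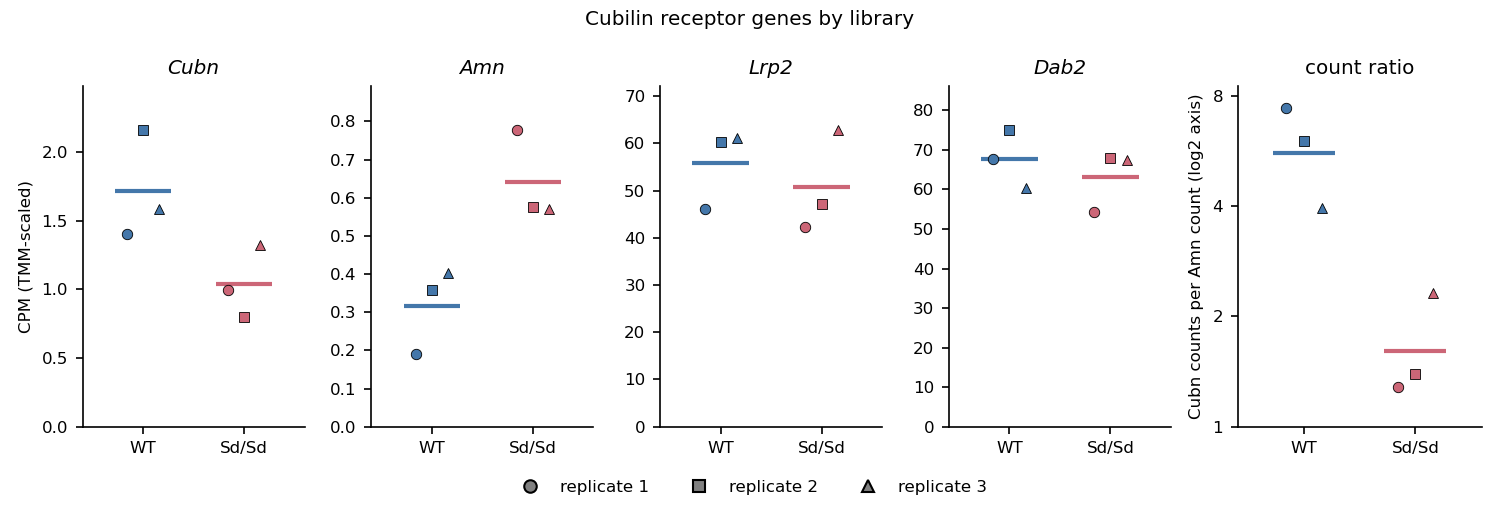
Levels of Cubn, Amn, Lrp2 and Dab2 in TMM-scaled CPM (vertical axes from 0) and the number of Cubn counts per Amn count (log2 axis) in each library; points are libraries, bars are group means (geometric for the ratio). The ratio is 3.94 to 7.4 in WT and 1.28 to 2.32 in Sd/Sd, while Lrp2 and Dab2 overlap between genotypes.

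Related genes were read from lists, again without a pass unless stated. Among other apolipoproteins, 4 of 6 tested were negative (median log2 fold change -0.23), and Apoc2, Apoc3, Apoc4 and Apoh had 0 counts. Clu, the gene of clusterin (apolipoprotein J), measured 12.8, 14.99 and 11.9 CPM in WT, against 8.71, 10.9 and 7.91 CPM in mutants, without overlap (log2 fold change -0.53 with SE 0.16; edgeR, adjusted p = 1.00). Apol6, the third gene named from that list, stood at a log2 fold change of 0.33 (SE 0.44).

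Genes listed for lipoprotein assembly and lipid storage, not all of which act in assembly, stood close to equal in the median. Of 16 tested 11 were negative, with a median log2 fold change of -0.03. Mttp, whose product loads lipid onto apolipoprotein B, stood at 12.9, 14.7 and 12.1 CPM in WT against 13.7, 10.8 and 14.7 CPM in the mutants, and the ranges overlapped (log2 fold change -0.02, SE 0.15). The smallest unadjusted p-values were those of Pltp (phospholipid transfer protein, 0.34, SE 0.12), Lpl (lipoprotein lipase, -0.29, SE 0.12) and Acat2 (0.11, SE 0.07), all log2 fold changes with edgeR adjusted p = 1.00. The 10 lipoprotein receptor and cholesterol efflux genes had a median of -0.05 with 7 negative, and Abcg1, Scarb1 and Sorl1 led by p with -0.28, -0.12 and -0.24.

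Retinol and thyroid hormone genes, the downstream side of Rbp4 and Ttr, were likewise close to equal (6 of 11 negative, median log2 fold change -0.03). Stra6, the membrane receptor for the retinol-binding protein, measured 63.5 ± 8.89 CPM in WT, against 60.8 ± 6.45 CPM in mutants (SD, n = 3). Dio3, which encodes a thyroid hormone deiodinase, and Bco1, which encodes a carotene-cleaving enzyme, stood at log2 fold changes of -0.47 and -0.57.

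Other secreted proteins of yolk sac endoderm were mostly near the limit of detection, and 0 passed. Of 7 tested 5 were negative, with a median log2 fold change of -0.19. Alb had 0 counts, Apoa2 had 1 in WT and 1 in Sd/Sd, and Trf, the transferrin gene, had 18 and 7. Ambp, which encodes the precursor of alpha-1-microglobulin and bikunin, measured 1.04, 1.17 and 1.54 CPM in WT, against 0.267, 0.208 and 0.530 CPM in mutants, without overlap (log2 fold change -1.90 with SE 0.42; edgeR, adjusted p = 0.672). Itih2, whose product binds bikunin, measured 0.815, 0.833 and 0.332 CPM in WT, against 0.218, 0.335 and 0.122 CPM in mutants, overlapping by Sd/Sd replicate 2 (log2 fold change -1.53 with SE 0.53; edgeR, adjusted p = 1.00). Itih2 reached the filter in every WT library but not in every Sd/Sd library. Serpina1b stood at a log2 fold change of -0.72 (SE 0.72), and as a member of a family of near-identical genes its count is uncertain. Spink1, a trypsin inhibitor gene that did not reach the filter and was picked after its values were seen, was counted 16, 14 and 8 times in WT and 2, 9 and 0 times in the mutants (ratio 0.277, 95% exact binomial interval 0.128 to 0.554). Other genes of that list below the filter, also picked after their values were seen, had the opposite order: Serpina1a, of the same near-identical family as Serpina1b, had 8 counts in WT and 23 in the mutants (ratio 2.76, 1.19 to 7.12), 22 of them in Sd/Sd replicate 2. Fetub had 1 count in WT and 7 in the mutants and was higher in every Sd/Sd library (ratio 6.71, 0.862 to 302).

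**Figure D4:**
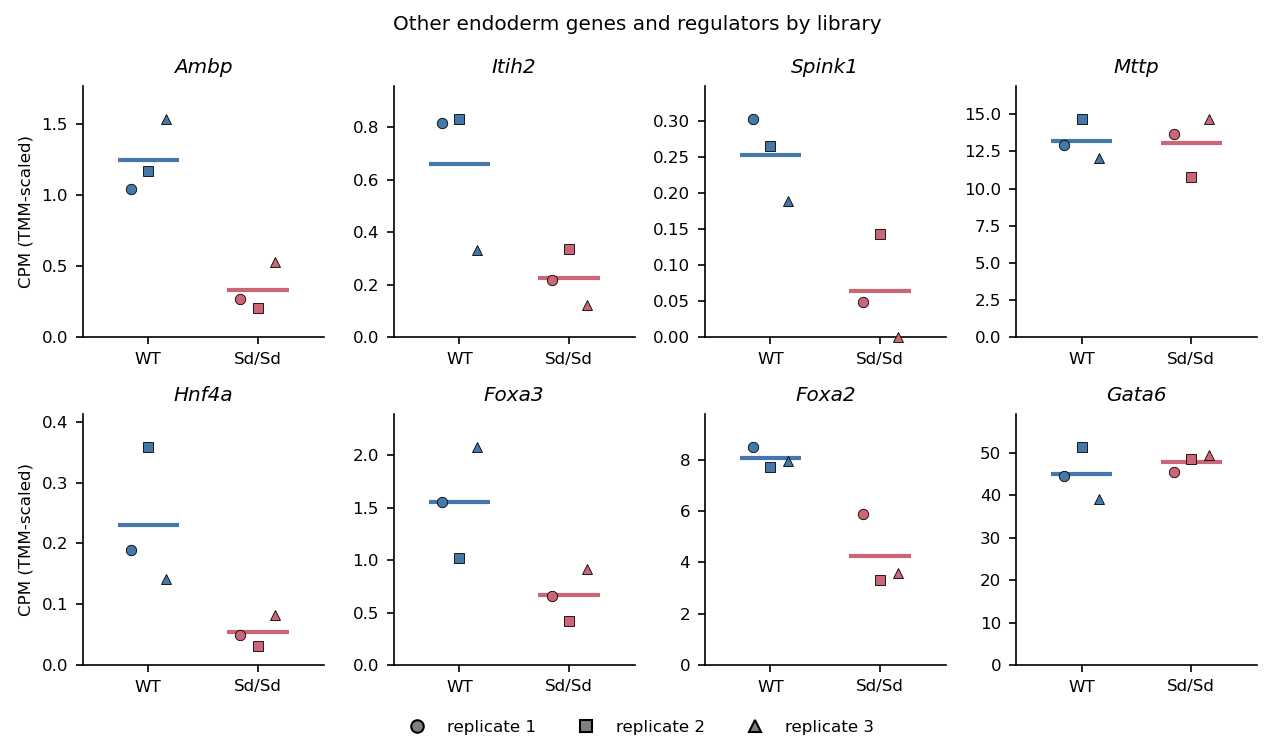
Levels in TMM-scaled CPM (vertical axes from 0) of 4 secreted or assembly genes, Ambp, Itih2, Spink1 and Mttp, and of 4 regulators, Hnf4a, Foxa3, Foxa2 and Gata6, chosen for display after their values were seen; points are libraries and bars group means (n = 3). Ambp, Spink1, Hnf4a, Foxa3 and Foxa2 are lower in every Sd/Sd library than in every WT library, and the other 3 overlap.

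Transcription factors of visceral endoderm, several of which are known to activate apolipoprotein genes, had 9 of 12 negative log2 fold changes (median -0.47) and 0 past the threshold. Foxa3 measured 1.55, 1.02 and 2.08 CPM in WT, against 0.655, 0.415 and 0.918 CPM in mutants, without overlap (log2 fold change -1.23 with SE 0.40; edgeR, adjusted p = 1.00). Foxa1 and Foxa2 had log2 fold changes of -1.28 and -0.92 (edgeR adjusted p = 0.755 and 0.930). Hnf4a, a direct regulator of Apob, Apoa1 and Ttr in liver, did not reach the filter, with counts of 10, 19 and 6 for WT against 2, 2 and 4 for the mutants, a ratio of 0.219 (95% exact binomial interval 0.0878 to 0.481). In CPM the mutant values of Hnf4a, 0.0485, 0.0319 and 0.0816, were all below the wild-type values of 0.190, 0.360 and 0.142; Hnf4a was named after its values were seen. Gata6 stood at a log2 fold change of 0.09 (SE 0.10).

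Surface and lysosomal genes of the same epithelium had 15 of 17 negative values and a median log2 fold change of -0.18. Epcam, Tmprss2 and Krt19, which gut epithelium also expresses, led by p with -0.55, -0.88 and -0.35, while Cdh1 (E-cadherin) stood at -0.04 and the lysosomal protease gene Lgmn at -0.09. Cldn2 had 0 counts.

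Of the hindgut endoderm markers, all 14 tested had a negative log2 fold change (median -0.46), against 50.1% of all genes tested. Among the 14, 2 passed as lower, Shh and Ihh (edgeR adjusted p = 0.0438 for both). Every Sd/Sd library lay below every WT library for 8 of 14, against 4.42% of all genes tested. Shh and Ihh, which encode hedgehog ligands, stood at -1.49 (SE 0.18) for Shh and -1.93 (SE 0.24) for Ihh on the log2 scale. Bulk tailbud RNA does not show which tissue the reads of the listed markers came from, the hindgut or another such as the notochord. Both calls were lost when any 1 of the 6 libraries was left out, with edgeR adjusted p from 0.0615 to 0.263 for Shh and from 0.0933 to 0.317 for Ihh. Of the 16 markers on that list Tff3 had 0 counts in WT and 4 in the mutants, and the others had counts in both genotypes. Several also stand on lists above, so the lists are not independent. Foxa1, Foxa2 and Sox17 are shared with the transcription factors and Spink1 with the secreted proteins. Epcam, Cdh1, Krt8 and Krt18 are shared with the surface and lysosomal genes. The summed level of the 16 markers was 679 to 869 CPM in WT and 621 to 874 CPM in Sd/Sd. Its largest parts were Krt8, Krt18 and Cdx2, with means of 249, 154 and 133 CPM in WT and 235, 154 and 129 CPM in Sd/Sd. The sum therefore says little about markers at a low level, such as Shh and Ihh. The part of the hindgut markers in the values of the 10 genes was not tested. Other cell types gave these values: 10 of 10 tested erythroid genes were negative (median -0.22; summed level 3757 to 9088 CPM in WT and 1797 to 10341 CPM in Sd/Sd), as were 10 of 10 endothelial genes (median -0.19; 608 to 674 and 507 to 716 CPM). Of 4 macrophage genes tested 3 were negative (median -0.09). The 13 on that list summed to 5.76 to 7.81 CPM in WT and 5.75 to 7.28 CPM in Sd/Sd. Of the 4 tested, 1, Fcer1g, was higher in every Sd/Sd library (log2 fold change 0.55, SE 0.40), against 3.26% of all genes tested. The groups of Fcer1g barely lay apart, at 0.4367 CPM in Sd/Sd replicate 1 against 0.4361 CPM in WT replicate 1. Of 4 trophoblast genes tested 3 were negative (median -0.28; 106 to 153 and 97.3 to 152 CPM). The defining markers Tpbpa and Prl2c2 had 0 counts and Prl3d1 had 1. Somite genes had 2 of 11 negative values (median 0.27) and neural tube genes 3 of 9 (median 0.16). Allantois and extraembryonic mesoderm genes had a median of -0.08 (624 to 933 and 494 to 957 CPM). Stress genes had a median of -0.18 (1749 to 1975 and 1569 to 1820 CPM). The part of these cell types and of stress in the values of the 10 genes was not tested either.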

How the data were processed

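The authors deposited raw read counts, in 1 table for each library. As upstream software, the submitters' processing notes list STAR 2.5.2b on build mm9, bcl2fastq 2.17.1.14, DESeq2, SAMtools and CASAVA. What counted the reads, on which strand and with which annotation, is not stated in the labels. Symbols, chromosomes, neighbours and exon lengths came from GENCODE M21 (GRCm38), which named 32620 of 37310 identifiers. The 10 genes, the 17 other gene lists and the alternatives were chosen with earlier results of these data known.

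filterByExpr (minimum count 10, minimum total 15) kept 15471 genes. On these, edgeR 4.0.16 in R 4.3.3 compared Sd/Sd with WT (TMM, robust glmQLFit, glmQLFTest, 2-sided), and p-values were adjusted by Benjamini-Hochberg over all genes kept, with a threshold of 0.05. A standard error is the log2 fold change divided by the square root of F. All 10 genes are named, and from each list those past the threshold or else up to 3 with the smallest p; for the cell type lists most are given only as counts, and a result that this rule would name is not reported here. The labels name no litters, so a p-value reflects the spread among these libraries alone. The labels do not say that the replicate numbers pair the libraries, and the main test did not pair them. Deviations from the group mean correlated at 0.194, 0.144 and 0.275 for numbers 1 to 3. Those of WT replicate 1 and Sd/Sd replicate 2 also correlated, at 0.182, so a pairing by number was not settled. A block for the number was fitted beside the unblocked test. Alternatives were DESeq2 1.42.0, limma-voom (limma 3.58.1), RLE and upper quartile scaling, no filter, at least 1 CPM in 3 libraries, no robust option, and each library left out.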

Additional observations from a re-analysis of the deposited data

How the results depend on the processing

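Under all 14 alternatives 0 of the tested genes among the 10 passed in either direction, and each tested gene kept the sign of its log2 fold change wherever it was fitted. The count of negative values stayed at 8 or rose with Apoa4 to 9, except that at least 1 CPM in 3 libraries left only 4 of the genes, of which 4 were negative. With the replicate block, 8 of 9 were negative with a median log2 fold change of -0.60, and 8 genes overall were higher and 4 lower; the block changed no call among the 10. Over all genes, 6 were higher and 3 lower as reported, 19 and 15 with DESeq2, 3 and 0 with limma-voom, 3 and 0 without the robust option, and 5 were lower with no filter. The calls of Shh and Ihh were lost with limma-voom (adjusted p = 0.0860 and 0.104) and without the robust option (0.0785 and 0.0566). Leaving out each library in turn gave 2 to 5 higher and 0 to 1 lower. In those fits the median of the tested genes ranged from -0.68 to -0.43. The count ratio of Apoa4 ranged from 0.154 to 1.24, with a floor of 3 counts in place of 0. That floor stood for the mutants without Sd/Sd replicate 1 and gave 0.494, where the upper limit at 0 counts was 0.771. Depth limited Apoa1, Apoa4, Ttr and Amn most, each with under 100 counts in each group.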
